A study of Rattus norvegicus with 9 samples.

Results

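The miR-7 family was followed in small RNA libraries from rat hippocampus. Its members are all rows of the count table named miR-7a or miR-7b with any arm or precursor ending, and 4 of the 633 listed mature miRNAs met that rule: rno-miR-7a-5p, rno-miR-7b, rno-miR-7a-2-3p and rno-miR-7a-1-3p, written without the species prefix from here on. The family was chosen by its measured levels in these libraries, since miR-7a-5p and miR-7a-2-3p stood low in the clozapine group. Its levels and fold changes are therefore given as a description, and counts of members past a threshold stand beside the share of all miRNAs past it and support nothing.

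Hippocampus was dissected from Sprague-Dawley rats, and each of 3 groups gave 3 libraries. The vehicle group (VEH) received saline for 14 days and then for another 7 days. Rats of the MK-801 group were injected intraperitoneally with 0.2 mg/kg MK-801 daily over 14 days and were then given saline over 7 days. MK-801 (dizocilpine) blocks NMDA receptors for glutamate and is used to model schizophrenia in rodents. In the MK-801+CLO group the 7 days after the 14 days of MK-801 brought clozapine, an antipsychotic drug, at 10 mg/kg. No group received clozapine without MK-801, so an effect of clozapine alone could not be separated from one that needs the MK-801 course. The labels give an age of postnatal day 21 and also state that treatment began at 5 weeks. They name 10 rats per group without saying how many rats a library holds, so the spread between libraries may be technical. In whole tissue, fewer cells of a type and less RNA per cell cannot be told apart.

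MiRNAs are cut from a hairpin precursor that can yield a mature strand from its 5′ arm (5p) and one from its 3′ arm (3p). The strand that stays in the Argonaute protein pairs through its seed, bases 2 to 8, with target mRNAs and represses them. MiR-7 is among the most conserved animal miRNAs, is abundant in neuroendocrine tissue such as pituitary, hypothalamus and pancreatic islets, and represses the mRNA of alpha-synuclein. In the brain it is part of a circuit of noncoding RNAs: the circular RNA Cdr1as carries many miR-7 sites, miR-671 directs the cutting of Cdr1as, and the long noncoding RNA Cyrano triggers the destruction of miR-7 itself.

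The mature sequences show how far apart the rows lie in sequence, so all 4 are printed 5′ to 3′ from RefSeq (assembly GRCr8), with the seed in capitals.
miR-7a-5p: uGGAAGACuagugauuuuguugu
miR-7b: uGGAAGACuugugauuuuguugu
miR-7a-2-3p: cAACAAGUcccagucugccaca
miR-7a-1-3p: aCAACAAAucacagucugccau
All 4 equal the sequences in the count table once U is read as T. The 5p strands of miR-7a and miR-7b share the seed GGAAGAC and differ by 1 base, A10U, counted from the 5′ end of miR-7a-5p. No other of the 633 listed sequences holds that seed. The 3p strands have seeds of their own and lie 5 edits apart from each other. MiR-3065-5p has the seed of miR-7a-1-3p, but had a count in only 1 library and was not tested.

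RefSeq holds 3 hairpins that carry these strands, printed here with the annotated mature arms in capitals because they show which strand marks which precursor.
mir-7a-1: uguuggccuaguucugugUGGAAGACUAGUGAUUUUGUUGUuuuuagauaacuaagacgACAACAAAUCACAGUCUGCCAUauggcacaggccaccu
mir-7a-2: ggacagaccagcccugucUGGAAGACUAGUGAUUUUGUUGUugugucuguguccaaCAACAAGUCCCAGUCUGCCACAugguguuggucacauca
mir-7b: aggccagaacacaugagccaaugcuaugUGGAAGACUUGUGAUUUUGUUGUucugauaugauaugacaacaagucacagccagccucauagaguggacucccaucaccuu
MiR-7a-5p is identical in the first 2 hairpins, so a miR-7a-5p read cannot be assigned to either. The 3p strands can be, since each occurs in 1 hairpin. The mir-7a-1 hairpin overlaps Hnrnpk, the gene of an RNA-binding protein, in the GRCr8 annotation. The mir-7a-2 hairpin overlaps the uncharacterised gene LOC120099863, with Det1 and then LOC120099862 before it and Aen after it. The mir-7b hairpin overlaps Rpl35l3. RefSeq uses the symbols Mir7-1, Mir8 and Mir9 for the hairpins of miR-7a-1, miR-7a-2 and miR-7b, and the last of these is not the gene of miR-9.

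Levels are in CPM, a miRNA's count scaled to the same total in every library, and library totals ran from 10665718 to 18284905 counts. The family summed to 190 to 451 CPM, from 2247 to 6992 counts per library. MiR-7a-5p was the most abundant member, at a mean of 174 CPM over the 9 libraries (96.9 to 262 CPM), rank 150 of the 633 miRNAs, next to miR-101b-3p at 176 CPM and miR-344b-1-3p at 174 CPM. MiR-7a-2-3p followed at 68.1 CPM (rank 203), miR-7b at 44.0 CPM (rank 230) and miR-7a-1-3p at 21.4 CPM (rank 274). This order held in all 9 libraries, and its lowest neighbours came nearest in MK-801+CLO replicate 2, at 29.2 CPM for miR-7b and 23.3 CPM for miR-7a-1-3p. At the lowest member count, 216, the 95% Wilson interval of a level ran from 16.1 to 21.0 CPM. The SD of miR-7a-1-3p between the VEH libraries was 1.47 CPM. Intervals cover counting error only.

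MiR-7a-5p, the main guide strand of the family, was lower in MK-801+CLO than in either other group. It stood at 157, 262 and 209 CPM in VEH replicates 1, 2 and 3. The MK-801 replicates held 193, 255 and 132 CPM, and the MK-801+CLO replicates 149, 114 and 96.9 CPM. All MK-801+CLO libraries lay below all VEH libraries, with 149 against 157 CPM as the nearest pair, while MK-801 replicate 3 lay among the MK-801+CLO libraries. Group means were 209 ± 52.6, 193 ± 61.5 and 120 ± 26.7 CPM (SD, n = 3 each). For the clozapine group the edgeR log2 fold change was -0.74 ± 0.24 (SE) against VEH and -0.64 ± 0.24 against MK-801. Between MK-801 and VEH it was -0.10 ± 0.24. The 3 comparisons share libraries in pairs and are not independent of one another.

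MiR-7b, the guide strand with the same seed, kept the same order of libraries with 1 exchange. It was at 38.6, 65.5 and 53.8 CPM in the VEH replicates, 49.2, 60.5 and 33.6 CPM in the MK-801 replicates and 39.1, 29.2 and 26.9 CPM in the MK-801+CLO replicates. Here MK-801+CLO replicate 1 lay just above VEH replicate 1, so both groups overlapped. The log2 fold change was -0.55 ± 0.23 against MK-801 and -0.67 ± 0.23 against VEH for the clozapine group, and -0.12 ± 0.23 for MK-801 against VEH.

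MiR-7a-2-3p, the 3p strand that marks the mir-7a-2 hairpin, had its highest mean in VEH, then MK-801, then MK-801+CLO, at 87.8 ± 16.3, 65.7 ± 17.0 and 50.7 ± 8.89 CPM (SD, n = 3 each). Its levels were 72.4, 105 and 86.1 CPM in VEH. They were 76.6, 74.5 and 46.1 CPM in MK-801, and 60.9, 44.4 and 46.8 CPM in MK-801+CLO. No MK-801+CLO library reached the VEH range, and MK-801 replicate 3 again lay among the MK-801+CLO libraries. The clozapine group had a log2 fold change of -0.73 ± 0.20 against VEH and -0.33 ± 0.20 against MK-801, and MK-801 had -0.40 ± 0.20 against VEH.

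MiR-7a-1-3p, the 3p strand that marks the mir-7a-1 hairpin within Hnrnpk, was not low in the clozapine group. The VEH libraries held 21.1, 18.4 and 18.8 CPM, the MK-801 libraries 23.2, 21.0 and 24.2 CPM and the MK-801+CLO libraries 22.7, 23.3 and 19.7 CPM. The groups overlapped in all 3 comparisons, and MK-801 replicate 3, low for the other members, was here the highest library. The clozapine group had a log2 fold change of 0.23 ± 0.13 against VEH and -0.02 ± 0.13 against MK-801, and MK-801 had 0.25 ± 0.13 against VEH.

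**Figure D1:**
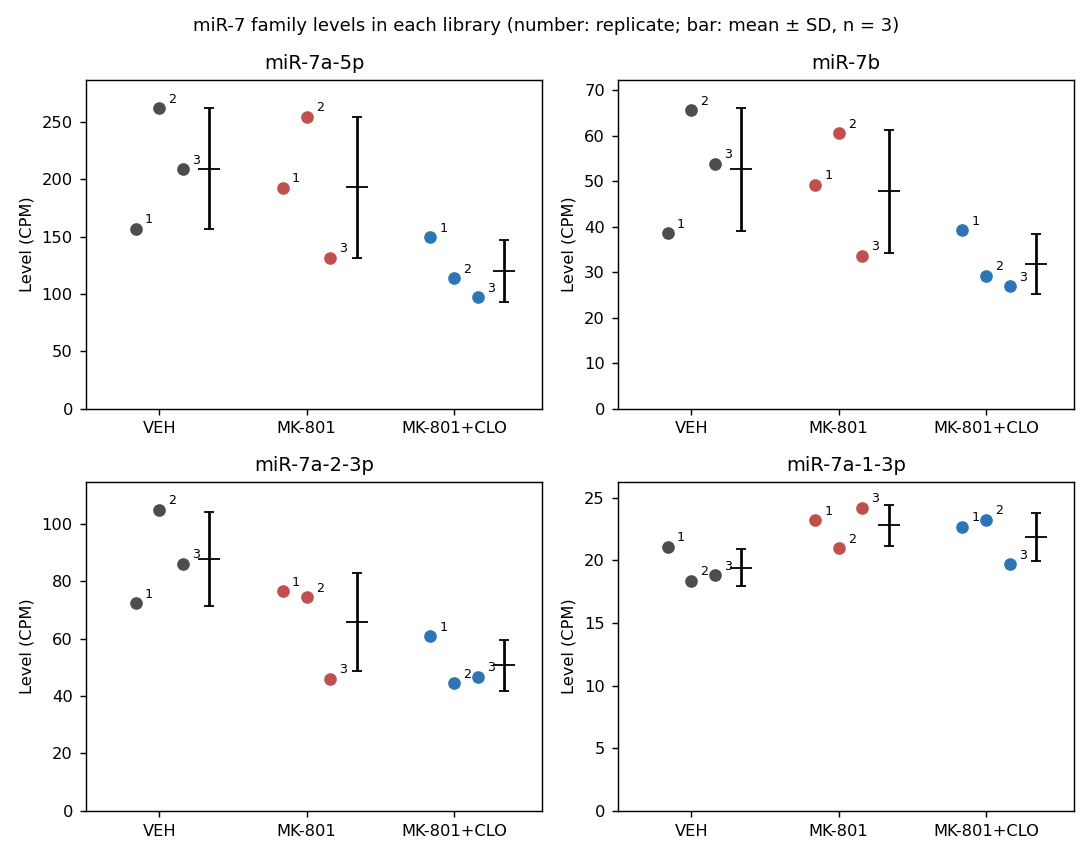
Level in CPM (linear axes from 0) of the 4 miR-7 family members in each of the 9 libraries, with points marked by replicate number and black bars for the group mean ± SD (n = 3). MiR-7a-5p, miR-7b and miR-7a-2-3p have their lowest mean in MK-801+CLO, and MK-801 replicate 3 lies in the range of those libraries. VEH replicate 1 lies close to MK-801+CLO replicate 1 for miR-7a-5p (157 and 149 CPM) and just below it for miR-7b (38.6 and 39.1 CPM). MiR-7a-1-3p stays between 18.4 and 24.2 CPM.

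With all 469 tested miRNAs in 1 edgeR fit, 0 of 4 members passed an adjusted p of 0.05 in each comparison, where 0% of the tested miRNAs passed. At an unadjusted p under 0.05 the MK-801 and VEH groups differed in 0 members, where 2.13% of tested miRNAs were called lower and 2.99% higher. In the clozapine group, 2 members (miR-7a-5p and miR-7b) were called lower than in MK-801, where 3.62% of miRNAs were, and 0 higher, where 4.69% were. Against VEH it had 3 members called lower, all but miR-7a-1-3p, where 7.46% of miRNAs were, and 0 higher, where again 7.46% were. Nothing is read from these counts, since the clozapine contrasts chose the family and its guide strands differ by 1 base.

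DESeq2 called 1 member at an adjusted p under 0.05, miR-7a-2-3p in the clozapine group against VEH, where it called 2.49% of miRNAs. It called 0 members in the other comparisons, with 0.213% of miRNAs called between MK-801 and VEH and 0.426% between the clozapine group and MK-801. Limma voom called 0 members and 0% of miRNAs throughout. Of the 4 members, 2 (miR-7a-5p and miR-7a-2-3p) had all MK-801+CLO libraries below all VEH libraries, as 11.5% of tested miRNAs did, and 0 had them all above, as 5.97% did. No member separated the clozapine group from MK-801, where 6.82% of miRNAs lay wholly below and 4.69% wholly above. Nor did any separate MK-801 from VEH, where 7.89% lay wholly below and 5.97% wholly above.

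Single libraries weighed on the difference between MK-801 and the other groups. Without MK-801 replicate 3, miR-7a-5p was at -0.83 and miR-7a-2-3p at -0.52 for the clozapine group against MK-801, and 3 members were lower at an unadjusted p under 0.05, as were 17 of 472 tested miRNAs. Without MK-801 replicate 2, MK-801+CLO replicate 2 or MK-801+CLO replicate 3 this was 0 members, with miR-7a-5p at -0.44, -0.63 and -0.53, while 11 of 473, 18 of 476 and 8 of 477 miRNAs were lower. Without MK-801 replicate 1 it was 1 member and 15 of 473 miRNAs. Between MK-801 and VEH, miR-7a-5p turned from -0.10 to 0.09 without either VEH replicate 2 or MK-801 replicate 3, and moved to -0.29 without VEH replicate 1 and to -0.31 when MK-801 replicate 2 was left out. In that comparison 1 member was lower at an unadjusted p under 0.05 without VEH replicate 1 (15 of 475 miRNAs) or MK-801 replicate 1 (9 of 473), and 1 was higher without MK-801 replicate 2 (20 of 473). Against VEH, the clozapine group's miR-7a-5p ran from -0.92 without VEH replicate 1 to -0.55 without VEH replicate 2, the library with the highest level, where 1 member was lower at an unadjusted p under 0.05, as were 32 of 477 miRNAs. Without MK-801+CLO replicate 3 it was 2 members and 19 of 477 miRNAs.

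**Figure D2:**
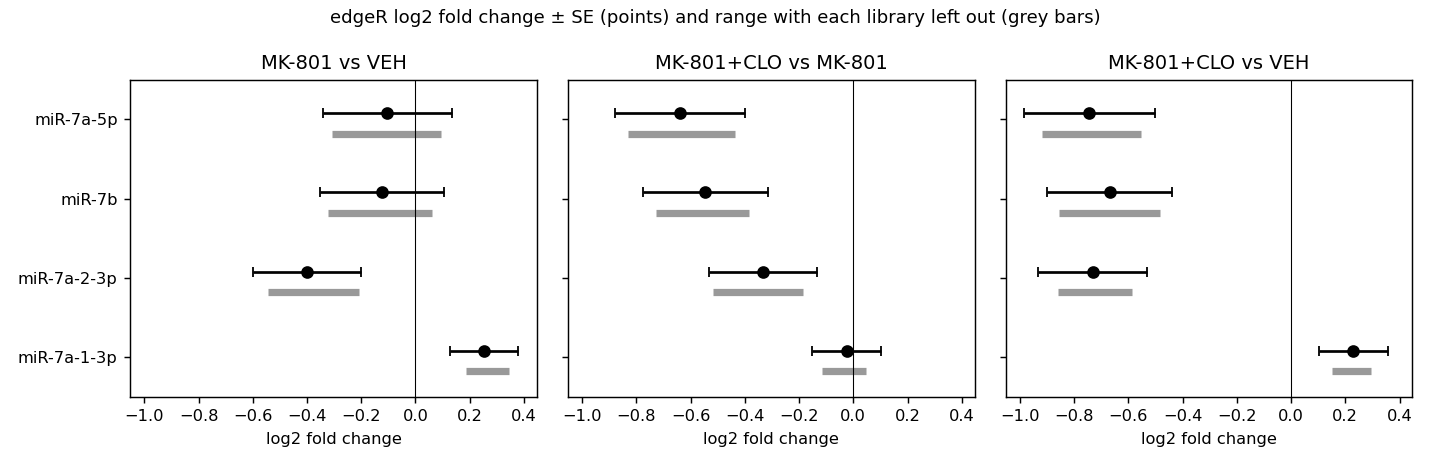
edgeR log2 fold change of each member in the 3 comparisons, with black points and bars for the value ± SE and grey bars for the range when each library of the groups compared is left out in turn. Between the clozapine and VEH groups, miR-7a-5p, miR-7b and miR-7a-2-3p lie below 0 over the whole range, and miR-7a-1-3p lies above 0 from 0.15 to 0.29.

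Ratios within a library do not depend on how libraries are scaled, and they show how evenly the members moved. MiR-7b stood at 24.6, 25.0 and 25.7 counts per 100 miR-7a-5p counts in VEH, 25.5, 23.8 and 25.5 in MK-801 and 26.2, 25.6 and 27.7 in MK-801+CLO. The ratio of these near-identical strands therefore stayed between 23.8 and 27.7 while miR-7a-5p itself ranged from 96.9 to 262 CPM. How reads that match both within a mismatch were assigned could not be learned from the sources used here, so the split of reads between these rows is uncertain. Counted as 1 feature, the guide strands had log2 fold changes of -0.73 ± 0.24 against VEH and -0.62 ± 0.24 against MK-801 in the clozapine group, and -0.11 ± 0.24 in MK-801 against VEH.

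The 3p strands parted. MiR-7a-2-3p stood at 42.5 ± 3.26 counts per 100 miR-7a-5p counts in VEH, 34.7 ± 5.25 in MK-801 and 42.7 ± 4.91 in MK-801+CLO (SD, n = 3 each), so the VEH and clozapine means differed by less than either SD. MiR-7a-1-3p stood higher against the guide strand, at 15.2, 20.4 and 20.3 counts per 100 in MK-801+CLO and 13.5, 7.00 and 9.01 in VEH, with no overlap. The MK-801 libraries spanned both ranges, at 12.0, 8.23 and 18.4. Between the 2 hairpin-specific strands, VEH libraries held 3.43, 5.71 and 4.58 miR-7a-2-3p counts per miR-7a-1-3p count. MK-801 libraries held 3.30, 3.55 and 1.91, and MK-801+CLO libraries 2.69, 1.91 and 2.37, all below the VEH range. These ratios are built from levels that chose the family and were not tested. As a share of family counts, miR-7a-1-3p went from 5.50 ± 1.65% in VEH through 7.39 ± 2.64% in MK-801 to 9.91 ± 1.40% in MK-801+CLO, while miR-7b stayed at 14.2 ± 0.708%, 14.5 ± 0.244% and 14.1 ± 0.278%.

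**Figure D3:**
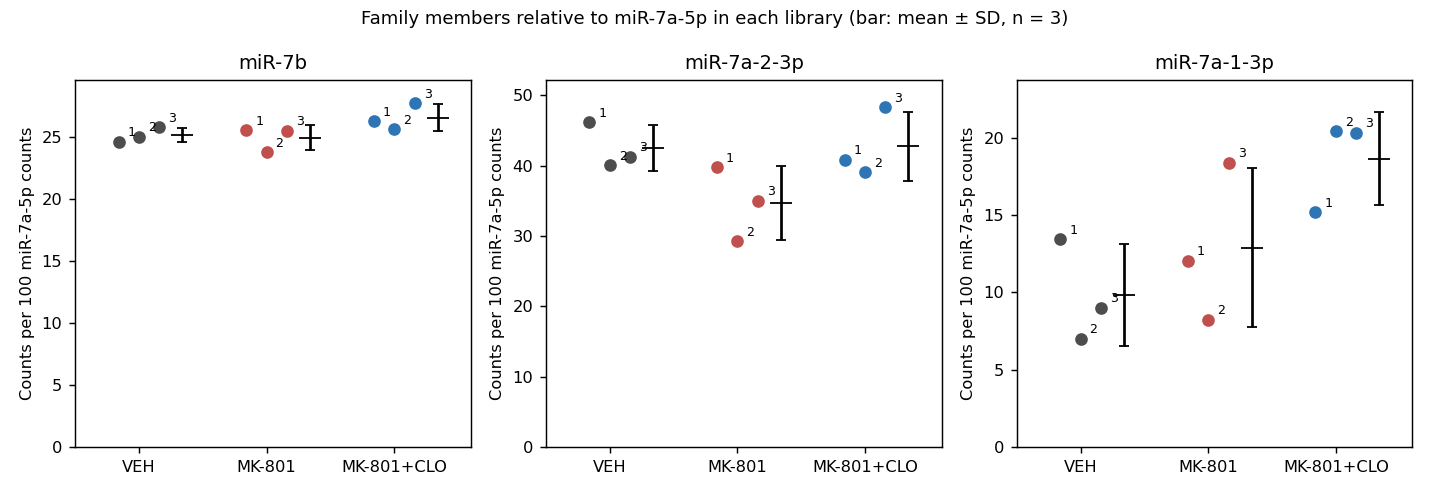
Counts of miR-7b, miR-7a-2-3p and miR-7a-1-3p per 100 counts of miR-7a-5p in each library (linear axes from 0), with points marked by replicate number and black bars for the mean ± SD (n = 3). The miR-7b ratio stays between 23.8 and 27.7, and the miR-7a-1-3p ratio of every MK-801+CLO library (15.2 to 20.4) lies above every VEH library (7.00 to 13.5).

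Across the 9 libraries, on log2(CPM + 1) after TMM scaling, Pearson's r with miR-7a-5p was 0.99 for miR-7b, 0.89 for miR-7a-2-3p and -0.59 for miR-7a-1-3p, and Spearman's rho was 0.98, 0.85 and -0.67. Between the 3p strands r was -0.74. These values describe 9 libraries that hold the treatment groups and share each library's scaling, and the first of them joins strands 1 base apart. The spread within groups differed in the same way. The within-group SD of the log2 level was 0.35 for miR-7a-5p, 0.33 for miR-7b and 0.28 for miR-7a-2-3p, against a median of 0.16 over the 333 miRNAs with a mean of at least 10 CPM, of which 31, 34 and 50 had a larger SD. For miR-7a-1-3p it was 0.13, and 212 of the 333 had a larger one.

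Among 329 miRNAs at 10 CPM or more outside the family, those most like miR-7a-5p by Pearson's r over the 9 libraries were miR-3099 (0.88), miR-6331 (0.87), miR-324-5p (0.86), miR-31a-5p (0.86) and miR-337-3p (0.84). Those most like miR-7a-2-3p were miR-6331 (0.97), miR-31a-5p (0.91), miR-664-3p (0.89), miR-324-5p (0.87) and miR-329-5p (0.84). MiR-6331, miR-31a-5p and miR-324-5p stood in both lists. The 9 libraries hold the groups by which the family was chosen, so r reflects group differences as well as spread within groups. All the miRNAs named lay lower in MK-801+CLO than in VEH, from -0.14 ± 0.12 (miR-329-5p) to -0.56 ± 0.20 (miR-3099). MiR-6331 was at 175, 194 and 187 CPM in the VEH libraries, 174, 181 and 148 CPM in the MK-801 libraries and 169, 136 and 144 CPM in the MK-801+CLO libraries. Its levels moved with those of miR-7a-2-3p over a narrower range, with a log2 fold change of -0.25 ± 0.11 for MK-801+CLO against VEH. MiR-31a-5p covered a wider range, from 103 CPM in MK-801+CLO replicate 2 to 232 CPM in VEH replicate 2. With Spearman's rho in place of Pearson's r, 4 of the 5 names for miR-7a-5p and 1 of the 5 for miR-7a-2-3p were the same.

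**Figure D4:**
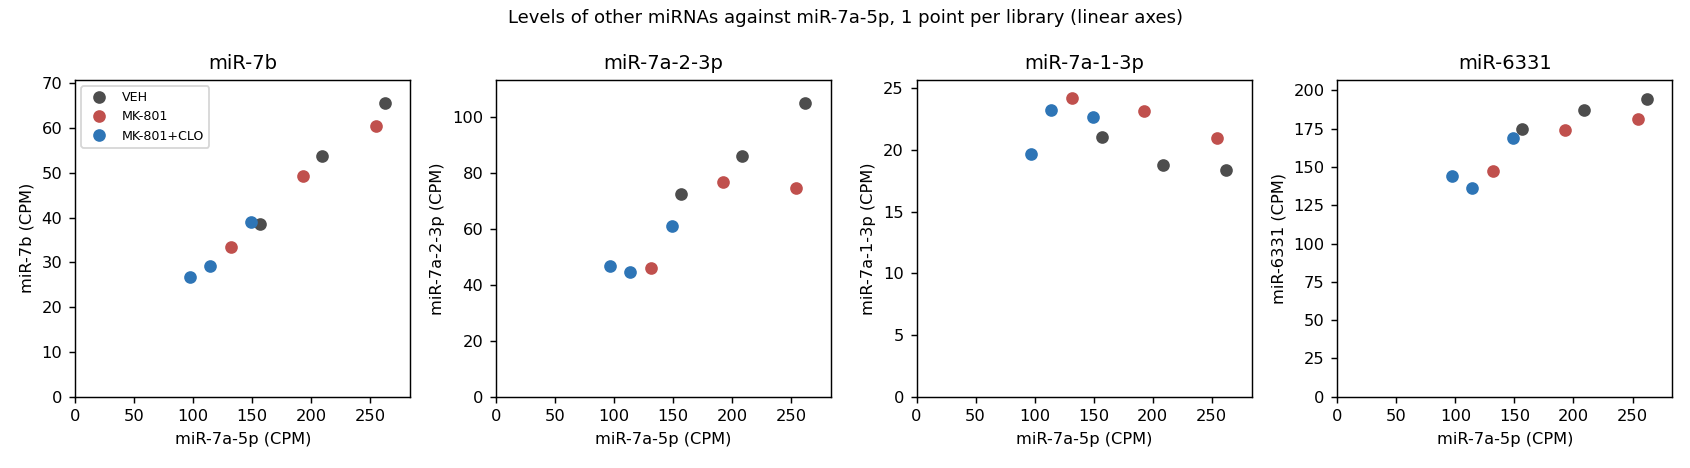
Level of miR-7b, miR-7a-2-3p, miR-7a-1-3p and miR-6331 against that of miR-7a-5p, all in CPM on linear axes from 0, with 1 point per library coloured by group. MiR-7b follows miR-7a-5p closely, miR-7a-2-3p and miR-6331 follow with more scatter, and miR-7a-1-3p does not rise with it.

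MiR-671, the miRNA of the Cdr1as circuit, is listed in 1 row without an arm ending. Whether that row counts the strand that directs the cutting of Cdr1as was not determined. The row was at 71.1 ± 4.79 CPM in VEH, 68.7 ± 3.18 CPM in MK-801 and 75.4 ± 4.80 CPM in MK-801+CLO (SD, n = 3 each). In the clozapine group its log2 fold change was 0.15 ± 0.11 against VEH and 0.17 ± 0.11 against MK-801, opposite in sign to the guide strands. Between MK-801 and VEH it was -0.03 ± 0.11, and 0.06 with upper-quartile scaling. Cdr1as and Cyrano are not miRNAs and were not measured. Of 8 other miRNAs known or proposed to be destroyed through pairing with a target, 7 lay lower and 1 higher in MK-801+CLO than in VEH, with a median log2 fold change of -0.09 against 0.00 over all 469 miRNAs, and 0 passed an adjusted p of 0.05 in edgeR. The most abundant, miR-221-3p, was at -0.35 ± 0.12, miR-222-3p of the same cluster at -0.29 ± 0.17, miR-29b-3p at -0.16 ± 0.16 and miR-322-5p at 0.12 ± 0.12. MiR-503-5p, at a mean of 1.01 CPM in MK-801+CLO, was at -0.37 ± 0.43. The rest of those counted as lower differed by far less than their SE: miR-30b-5p (-0.02 ± 0.14), miR-30c-5p (-0.01 ± 0.10) and miR-335 (-0.03 ± 0.31). Against MK-801, 5 of the 8 lay lower and 3 higher (median -0.10). In MK-801 against VEH 4 lay on each side (median -0.01), or 5 higher and 3 lower with upper-quartile scaling.

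Because miR-7 is abundant in neuroendocrine tissue, miRNAs of such tissue were set beside it. The 9 listed miRNAs summed to 375, 212 and 339 CPM in the VEH libraries, 214, 414 and 171 CPM in the MK-801 libraries and 248, 215 and 120 CPM in MK-801+CLO. MiR-375-3p, known from pancreatic islets and pituitary, and miR-182 made up most of this. MiR-375-3p was at 238, 133 and 166 CPM in the VEH libraries, 116, 235 and 93.8 CPM in the MK-801 libraries and 91.6, 137 and 41.5 CPM in MK-801+CLO, a log2 fold change of -0.94 ± 0.43 for MK-801+CLO against VEH. Like miR-7a-5p it was lowest in MK-801+CLO replicate 3, and within MK-801 both were highest in replicate 2 and lowest in replicate 3. Within VEH, however, miR-375-3p was lowest in replicate 2, where miR-7a-5p was highest. Within MK-801+CLO miR-375-3p was highest in replicate 2 and miR-7a-5p in replicate 1. MiR-141-3p stayed at 1.83 to 5.96 CPM, and miR-200c-3p, an epithelial miRNA, had at most 2 counts in any library. Of the 6 list members tested, 3 lay lower and 3 higher in MK-801+CLO than in VEH (median 0.25). The 3 higher were miR-200a-3p (0.87 ± 0.83), miR-429 (1.34 ± 0.66) and miR-141-3p (0.52 ± 0.42). They were of low level, with means of 0.62, 0.84 and 3.95 CPM in MK-801+CLO. The 3 lower were miR-375-3p, miR-182 (-0.32 ± 0.37) and miR-183-5p (-0.03 ± 0.40). The part of these list members in the miR-7 result was not tested.

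The other marker lists differed between libraries in ways that did not all follow miR-7. The 11 neuron-enriched miRNAs summed to 126322 to 155697 CPM in every library, which marks the tissue as brain but not as hippocampus. In MK-801+CLO against VEH, 8 of the 11 lay higher (median 0.20), or 7 with library totals or upper-quartile factors. The mean sum was nonetheless slightly lower, at 135406 CPM against 137833 CPM in VEH. MiR-9a-5p, at -0.07 ± 0.09, made up most of it, and MK-801+CLO replicate 2 had the lowest sum. The 4 oligodendrocyte miRNAs summed to 4371 to 6458 CPM in VEH, 4342 to 7342 CPM in MK-801 and 4314 to 6506 CPM in MK-801+CLO. The 7 choroid plexus and ependyma miRNAs reached 12394 CPM in VEH replicate 3, against 3984 and 5800 CPM in the other VEH libraries, 3647 to 4495 CPM in MK-801 and 2562 to 3855 CPM in MK-801+CLO, and 6 of the 7 lay lower in MK-801+CLO than in VEH (median -1.16). Without VEH replicate 3, the list still lay lower in all MK-801+CLO libraries than in the remaining VEH libraries. MiR-7a-5p and miR-7a-2-3p were then both at -0.74 in that comparison. VEH replicate 3 held 209 and 86.1 CPM of them, near the VEH means of 209 and 87.8 CPM. Leaving it out could therefore hardly move these values, and nothing is read from them. The 7 blood and vessel miRNAs summed to 21059 to 23570 CPM in VEH, 20729 to 21921 CPM in MK-801 and 23845 to 27703 CPM in MK-801+CLO. MiR-143-3p made up most of each sum, and 4 of the 7 lay higher and 3 lower in MK-801+CLO than in VEH (median 0.08). Against MK-801 all 7 lay higher in MK-801+CLO (median 0.21), or 5 with upper-quartile factors. In MK-801 against VEH all 7 lay lower (median -0.18), or 5 with upper-quartile factors. The 7 choroid plexus and ependyma miRNAs all lay lower in MK-801 than in VEH (median -0.40). Against MK-801, 6 of them lay lower in MK-801+CLO (median -0.48). The miRNAs of muscle and liver summed to 18.5 to 33.2 CPM in all libraries. The part of these lists in the miR-7 levels was not tested.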

How the data were processed

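Per the labels, RNA came from frozen hippocampus and libraries followed Illumina protocols. The submitters' processing notes name cutadapt 1.14, Bowtie, DESeq and the build Rnor_6.0, without roles. The authors deposited whole-number counts per miRNA and library, and values headed TPM that equal CPM, the count scaled to a common library total (largest difference 0.000473%). The table held 21 blank lines and 1 name split over lines, which was rejoined.

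The counts were fitted with edgeR 4.0.16 in R 4.3.3: filterByExpr kept 469 of 633 miRNAs and all 4 family members, with TMM scaling, glmQLFit and glmQLFTest, 1 mean per group over all 9 libraries and Benjamini-Hochberg adjustment at 0.05. Each SE was obtained from the fold change and its F statistic. Alternatives used DESeq2 1.42.0 and limma 3.58.1, other scalings and filters, the replicate number as a block and each library left out. The code was tested on simulated counts. No 2 libraries of a group agreed within sampling noise.

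The members and lists were chosen with earlier results of these data known. The text names family members, members of the lists, miRNAs sharing a seed, neighbours in level and the 5 most alike by Pearson's r. A joint feature of miR-7a-5p and miR-7b, and DESeq2 without independent filtering, were added after the data were seen. Sequences are from RefSeq, assembly GRCr8. The labels' build is another, and coordinates are left out.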

Additional observations from a re-analysis of the deposited data

How the results depend on the processing

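No member passed an adjusted p of 0.05 in any comparison under any alternative except DESeq2, which called 11 miRNAs, 1 of them a member, for MK-801+CLO against VEH, miR-7a-2-3p at -0.72. That call tests the contrast that chose the family and supports nothing. Without independent filtering, an alternative chosen after seeing the data, DESeq2 called 3 miRNAs and 0 members. In the other comparisons DESeq2 called 1 and 2 miRNAs. With all libraries edgeR called 0. Without MK-801+CLO replicate 2 it called 7 against VEH and 2 against MK-801, and without MK-801 replicate 2 it called 1 between MK-801 and VEH, none of them a member. In the settings that used all libraries of a comparison, each member kept the sign of its log2 fold change. Upper-quartile factors brought the clozapine group's median against MK-801, over the tested miRNAs, to -0.12 on the log2 scale, and miR-7a-5p to -0.75. At an unadjusted p under 0.05 they gave 4 miRNAs higher and 44 lower, against 22 and 17 with TMM. Between MK-801 and VEH they gave 28 higher and 6 lower, against 14 and 10, and with library totals alone 17 were higher and 46 lower in the clozapine group than in VEH, against 35 and 35. Members past that unadjusted threshold between MK-801 and VEH went from 0 to 1, higher, with upper-quartile factors or a minimum mean of 10 CPM (15 of 333 miRNAs). Between the clozapine group and MK-801 they went from 2 to 3 with upper-quartile factors, and to 1 with limma-trend on log2(CPM + 1) (17 of 469 lower) or the replicate block (15 of 469). Leaving out 1 library at a time gave ranges in which 0 members passed. They were -0.31 to 0.09 for miR-7a-5p and -0.32 to 0.06 for miR-7b in MK-801 against VEH, whose sign turned without VEH replicate 2 (0.087 and 0.059) and without MK-801 replicate 3 (0.093 and 0.061). MiR-7a-1-3p ran from -0.12 to 0.05 in MK-801+CLO against MK-801, turning without MK-801 replicate 1 (0.0024), MK-801 replicate 3 (0.046) and MK-801+CLO replicate 3 (0.033). The cause was not tested. Same-numbered libraries did not deviate together (correlations from -0.44 to 0.25), nor did each correlate best with its own number, so the numbers were not taken as pairs. With the replicate block 0 members passed, and for MK-801+CLO against VEH miR-7a-5p was at -0.74 and miR-7a-2-3p at -0.74.

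At these library totals, counting error was below the spread between libraries for the guide strands.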
